A study of Mus musculus with 8 samples.

Results

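The Vmp1 and Mir21 locus is a stretch of 200 kb of mouse chromosome 11, from 86350 to 86550 kb on the mm9 assembly, picked for its many Foxk1 peaks. Its members were the deposited Foxk1 peaks with their summit in this window, 26 of the 28933 peaks of the list. Of the 57 peaks between 86 and 87 Mb on chromosome 11, the other 31 were outside the window. The window was chosen from the positions of these same peaks, so its peak number, density, spacing and signal values are given as descriptions, without a test. Foxk1 binding was mapped by chromatin immunoprecipitation and sequencing in untreated mouse embryonic fibroblasts (MEFs), connective-tissue cells cultured from embryos and here grown in DMEM. Of the 8 libraries, 3 came from immunoprecipitation with a Foxk1 antibody, 3 from IgG and 2 from input chromatin, for which no antibody was used. The track line of the peak list names a comparison of Foxk1 with input, and the list gives 1 value per peak, so no value per library, no replicate error and no IgG value stands beside any peak. Read depth is unknown. Enrichment at the locus that is not specific to the Foxk1 antibody therefore cannot be told apart from Foxk1 binding.

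Foxk1 is a transcription factor of the forkhead family, whose winged-helix domain contacts DNA, and it is known as a repressor of autophagy genes in nutrient-fed muscle cells. Vmp1, vacuole membrane protein 1, is a membrane protein of the endoplasmic reticulum that moves phospholipids between membrane leaflets and is needed to build autophagosomes, the vesicles that enclose material for degradation. Mir21 encodes miR-21, a microRNA that is abundant in activated fibroblasts and many tumours. In the RefSeq annotation of the GRCm38 assembly, the miRNA gene (listed as Mir21a, 92 bp) lies inside the interval of Vmp1 (99979 bp), on the same strand and 209 bp from the downstream end of Vmp1. Along the chromosome the neighbouring protein-coding genes are Rps6kb1, the S6 kinase that acts below mTORC1, and Tubd1, a delta tubulin, on the side of Mir21. On the side of the Vmp1 start they are Ptrh2, a mitochondrial peptidyl-tRNA hydrolase, and Cltc, the clathrin heavy chain. These gene positions are on another assembly than the peaks, and no coordinate was carried from one to the other. Which peak lies in which gene, promoter or intron was not analysed here, and neither was the placement of both genes inside the mm9 window.

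The products of the miRNA gene are shown first because the locus carries their name. The Mir21a hairpin is on the minus strand of chromosome 11 (GRCm38.p6) and gives 2 mature arms.
In their RefSeq sequences the capitals mark the seed, bases 2 to 8, through which a miRNA finds most of its targets.
mmu-miR-21a-5p: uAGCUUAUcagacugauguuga
mmu-miR-21a-3p: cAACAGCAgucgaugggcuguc
mmu-miR-21c: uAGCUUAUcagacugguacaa
Among the 1738 mature mouse miRNAs of the RefSeq table, 2 carry the seed of miR-21a-5p, itself and miR-21c, whose gene is on chromosome 8. From the first base on, 16 of the 21 bases of miR-21c match miR-21a-5p. The seed of the 3p arm occurs in 1, miR-21a-3p itself.

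The RefSeq promoter table holds 3 start windows for Vmp1 and none for Mir21a. The 250 bases before the most upstream Vmp1 start are shown, and whether they regulate the host gene was not tested. They are chr11:86683837-86684086 on the minus strand of GRCm38.p6 and are not on the same scale as the mm9 peaks.
Vmp1 upstream: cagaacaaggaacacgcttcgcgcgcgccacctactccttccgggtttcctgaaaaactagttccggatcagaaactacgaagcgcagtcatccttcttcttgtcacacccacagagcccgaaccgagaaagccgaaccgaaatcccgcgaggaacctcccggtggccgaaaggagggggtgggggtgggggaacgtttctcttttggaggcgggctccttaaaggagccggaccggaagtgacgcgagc
This stretch has a GC content of 59.2%, against a median of 52.4% over the same 250 bases of all 32851 promoter windows, and it holds 23 CG dinucleotides. Vmp1 and Ptrh2 start back to back here, and their 300-base windows on opposite strands share 263 bases. The forkhead word GTAAACA was found on neither strand of the 3 Vmp1 windows or of the Ptrh2 window, and 3.65% of all promoter windows hold it. The AP-1 word TGANTCA was likewise found in none of the 4, and 7.81% of all windows hold it. An absent word says only that these letters do not occur in these windows.

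Foxk1 peaks in the locus were headed by a single strong summit, with a crowd of weaker ones mainly to one side of it. The strongest peak spanned 86442847 to 86443306 with its summit at 86443077 and had a signal value of 174. The signal value is the authors' score for each peak, of no stated scale, and it is used here only to rank and describe peaks within this list. This peak ranked 83 of all 28933 peaks and 12 of the 2103 on chromosome 11. It shared the lowest q-value of the list, 0.00014. A q-value is the estimated share of false calls among all peaks called at that strength or above.

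The next members stood on either side of it. The second summit was at 86400992, 42.1 kb toward lower coordinates, with a signal value of 77.8 and rank 827 in the list. The third was at 86437952, only 5.13 kb from the strongest summit, with a signal value of 73.2 and rank 981. The fourth, at 86505113, was the last peak of the locus on the high-coordinate side, with a signal value of 47.7 and rank 2536. All 4 had the lowest q-value, and the other 22 members did not. Of all peaks in the list 12.3% had it, so that 4 of 26 members (15.4%) is close to the background.

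**Figure D1:**
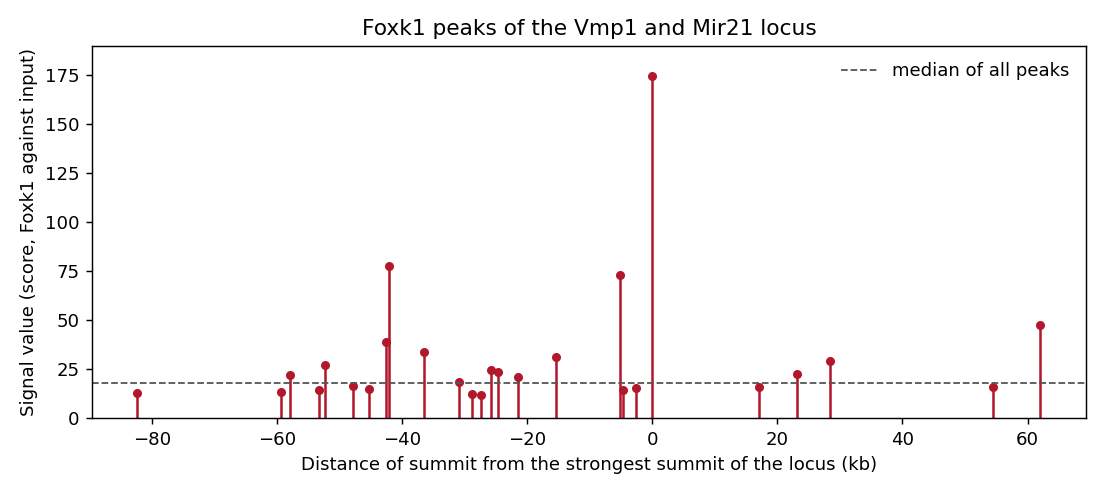
Each of the 26 Foxk1 peaks of the locus is a line at the distance of its summit from the strongest summit (kb, negative toward lower mm9 coordinates), with its signal value as height, and the dashed line is the median of all peaks, 17.8. The summit at 174 stands above those at 77.8 and 73.2, and most members lie to the left of the strongest one.

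Strong peaks were few among the members, as they were in the whole list. Signal values of 50 or more were found in 3 of the 26 members (11.5%). The share was 7.97% of all peaks, 9.92% of the rest of chromosome 11 and 16.1% of the rest of the 1 Mb. Values of 100 or more were found in 1 member (3.85%), against 1.47% of all peaks. Values at or above the median of the list were held by 15 members (57.7%), against 50% of all peaks by construction. A q-value of at most 0.001 was given to 15 members as well, against 51.3% of all peaks. The window rule used positions from this same contrast, and nothing is read from these shares. Between the extremes, 11 members had signal values from 20 to under 50, and 12 of the 26 lay under 20. In the whole list about 58% of peaks lay under 20, since the 58th percentile was 19.96. The weakest member was the peak with its summit at 86415755, with a signal value of 11.7 and rank 27079, close to the lowest value of the list, 11.3. The median over the members was 21.6, with 25th and 75th percentiles of 15.0 and 31.0.

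The members fell into 5 groups when neighbouring summits at least 10 kb apart were separated. The largest was a run of 16 summits over 43.9 kb, from 86383799 to 86427677, with a median spacing of 2.44 kb. Its signal values ran from 11.7 to 77.8 with a median of 21.6. No other run in the list of 19537 held as many, and the next was one of 15 peaks on chromosome 17 over 59.96 kb, from 80094607 to 80154562. Of those runs, 13806 were single peaks. With gaps under 20 kb the run grew to 23 summits and was again the longest, but with gaps under 5 kb it broke up. Its longest piece then had 8 summits, and 4 other runs in the list had more, up to 11.

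Within this run the peaks came in small sets. At its low end stood 2 close pairs. The summits at 86383799 and 86385167 were 1368 bp apart, with signal values of 13.4 and 22.0. Those at 86389743 and 86390783 were 1040 bp apart, with 14.5 and 27.1. Summits at 86395311 and 86397746 followed singly, with signal values of 16.2 and 14.8, both below the median of the list.

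The middle of the run held its strongest site. The second strongest peak of the locus, at 86400992, had a neighbour 467 bp away at 86400525 with a signal value of 38.9, the fifth strongest member. Their 460 bp wide peaks lay next to each other without overlap. The sixth, with a signal value of 34.0, followed at 86406664. Farther on, 6 summits between 86412186 and 86421570 were at most 3151 bp apart. They were all modest, with signal values of 18.4, 12.6, 11.7, 24.7, 23.8 and 21.2 in order of position. The run ended at 86427677 with a signal value of 31.5.

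A second group of 4 summits over 5.13 kb held the strongest peak and began 10.3 kb beyond the end of the run. Its first peak, the third strongest of the locus at 86437952, overlapped the next one, whose summit was 440 bp away at 86438392 and whose signal value was 14.4. This was the only overlapping pair among the 25 pairs of neighbouring members. A summit at 86440523 with a signal value of 15.5 stood between that pair and the strongest summit, which was 2554 bp beyond it. Beyond the strongest summit no peak followed for 17.1 kb. Of the 25 other members, 3 lay within 10 kb of it and 5 within 20 kb.

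The high-coordinate side was sparser. A group of 3 summits at 86460174, 86466163 and 86471560 had signal values of 15.9, 22.5 and 29.4. After an interval of 26.0 kb, the longest inside the locus, came the last 2 members, with signal values of 16.1 at 86497530 and 47.7 at 86505113. The remaining member stood alone at the other end, at 86360779, with a signal value of 12.8 and 23.0 kb from the start of the run.

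The q-values of the members did not follow the signal values exactly. They ran from 0.00014 to 0.00718 within the locus. The peak at 86417388 had a signal value of 24.7 and a q-value of 0.000402, lower than the 0.0005 of the stronger peak at 86406664, with 34.0. Summits at 86466163 and 86471560 shared a q-value of 0.000542 with signal values of 22.5 and 29.4. Ranks given here are by signal value.

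The edges of the window fell in stretches with few peaks. The first summit inside lay 10.8 kb from the lower edge with a signal value of 12.8, and the last summit outside lay 1.78 kb before that edge, at 86348220, with 18.3. At the upper edge, the last summit inside lay 44.9 kb from the edge with 47.7, and the first outside lay 13.1 kb beyond it, at 86563130, with 15.8. The members thus spanned 144 kb of the 200 kb window, and 58.0 kb without a summit followed the last of them. Their peaks covered 11.9 kb in all. This length follows from their number and the fixed width of 460 bp, and is not a measured extent of binding. In each member the summit was the middle of the peak, so overlap depends only on the distance between summits.

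In the 1 Mb from 86 to 87 Mb on chromosome 11, peaks were most crowded in the locus. It held 26 peaks, or 13.0 per 100 kb, against 31 peaks in the other 800 kb, or 3.88 per 100 kb, a ratio of 3.35. Of the 1 Mb, 20% of the length thus carried 45.6% of the 57 peaks. Density was 3.14 per 100 kb in the 350 kb before the locus and 4.44 in the 450 kb after it, so that the locus stood above both flanks. Over the rest of chromosome 11 there were 1.71 peaks per 100 kb, with the highest peak end taken as its length, and the ratio of the locus to it was 7.60.

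**Figure D2:**
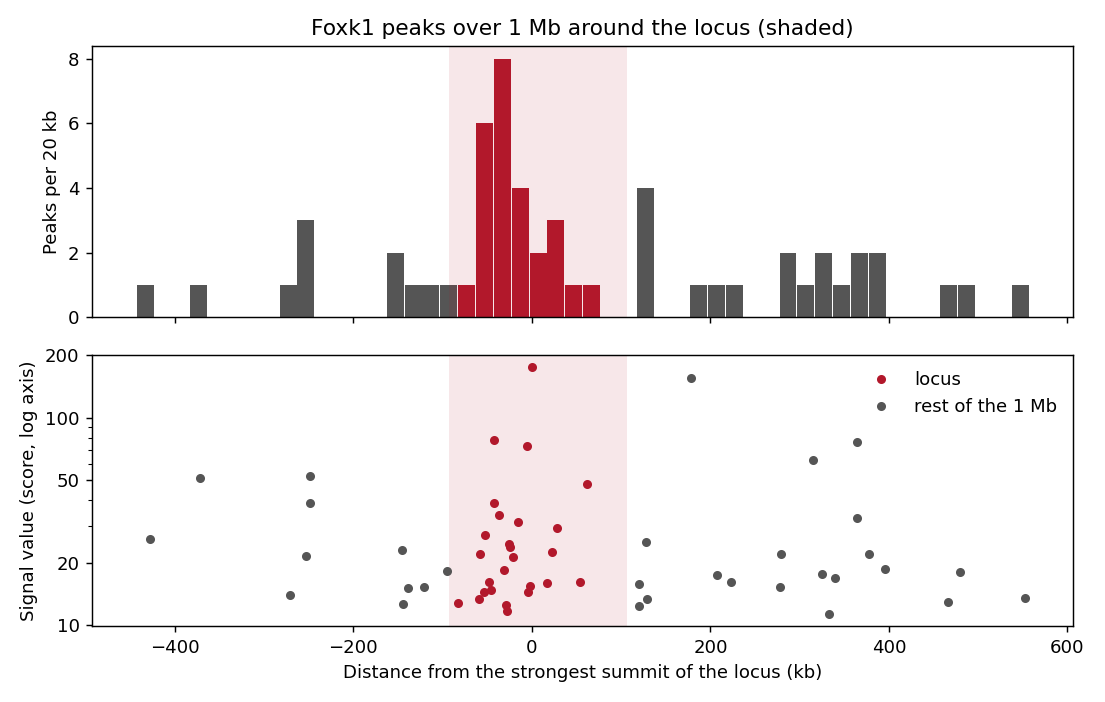
The upper panel counts Foxk1 peaks per 20 kb over chr11:86-87 Mb (mm9) against the distance from the strongest summit (kb), and the lower panel gives the signal value of each peak on a log axis, with the locus shaded and its peaks in red. The fullest bin of the locus holds 8 peaks and no bin outside it more than 4, whereas strong peaks, such as those at 174 and 155, occur both inside and outside. The grey bar at the left edge of the shading holds the last summit before the window.

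Signal values of the locus and of the rest of the 1 Mb overlapped over nearly their whole range. The median was 21.6 in the locus, against 18.1 in the rest of the 1 Mb, 18.7 in the rest of chromosome 11 and 17.8 in the whole list. Values ran from 11.7 to 174 in the locus and from 11.4 to 155 in the rest of the 1 Mb. Among the 31 peaks of the rest, 12 were above the median of the locus. Peaks of at least 50 were 3 of 26 in the locus and 5 of 31 in the rest.

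The strongest peaks of the locus and of its surroundings differed in their company. The strongest of the rest of the 1 Mb was at 86621153, 178 kb from the strongest summit of the locus, with a signal value of 155 and rank 129. The summit nearest to the strongest one of the locus was 2554 bp away, and the one nearest to 86621153 was 28929 bp away. Within 100 kb on either side the locus summit had 26 other summits, the 25 other members and the last one before the window, and the one at 86621153 had 7. Of the 426 peaks in the list with signal values of 100 or more, none had more than 26 others within that distance, 1 other had as many, and the median was 6.

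Summits were more closely spaced in the locus than in the rest of the 1 Mb at distances of several kb. The median distance between neighbours was 3.15 kb in the locus, against 16.5 kb in the rest of the 1 Mb, 19.3 kb in the rest of chromosome 11 and 24.8 kb in the whole list. Another summit within 10 kb was found for 25 of the 26 members (96.2%), against 17 of 31 peaks (54.8%) in the rest of the 1 Mb and 52.2% of all other peaks. Within 5 kb the shares were 69.2% in the locus, 41.9% in the rest of the 1 Mb and 39.5% of all other peaks. Within 2000 bp they were 46.2% in the locus (12 of 26), 38.7% in the rest of the 1 Mb (12 of 31) and 25.7% of all other peaks. Within 1000 bp alone among these distances, the share was lower in the locus than in the rest of the 1 Mb: 4 of 26 members (15.4%) had another summit, against 10 of 31 (32.3%) in the rest of the 1 Mb and 16.3% of all other peaks.

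**Figure D3:**
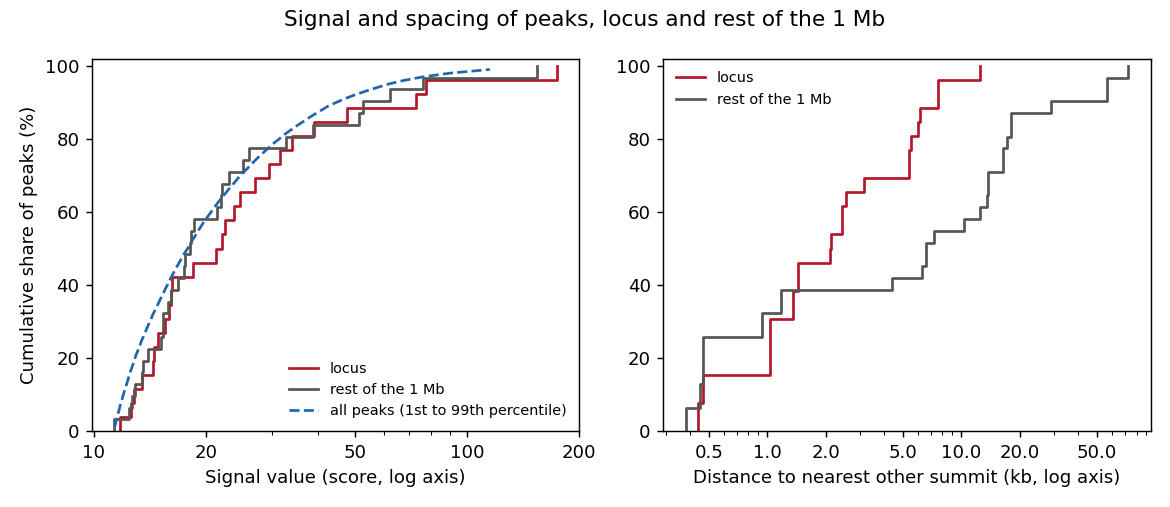
Cumulative shares of peaks by signal value (left, log axis) and by distance to the nearest other summit (right, kb, log axis), for the 26 peaks of the locus in red and the 31 of the rest of the 1 Mb in grey, with all peaks dashed on the left. The signal curves run close together, while 69.2% of the locus peaks and 41.9% of the others have a neighbour within 5 kb.

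In the whole list, few stretches of this length were as full. When chromosomes were divided into 200 kb windows on a grid that makes the locus 1 window, 7561 windows held a peak, with a median of 3 outside the locus. Only 1 held more peaks than the 26 of the locus, chromosome 19 from 8950001 to 9150000 with 27, and 1 held as many, chromosome 19 from 5750001 to 5950000. That grid was chosen to fit the locus. On a grid starting at 0, the part of chromosome 11 from 86400001 to 86600000 held 23 peaks and shared rank 3. This count leaves out the members below 86400001 and includes 4 peaks beyond the locus, between 86560001 and 86580000. The fullest 200 kb windows of that grid were chromosome 19 from 9000001, with 27 peaks, and from 5800001, with 24. The windows on chromosome 5 from 107400001 and on chromosome 19 from 34400001 held 23 as well.

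No other full window reached the strongest peak of the locus. On the grid that holds it, 11 other windows had at least 20 peaks. Their highest signal values were all below the 174 of the locus, with 169.6 in the fullest window on chromosome 19 and a median of 80.8. Their median signal values ran from 15.2 to 25.8 and were at or above the 21.6 of the locus in 4 of them.

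**Figure D4:**
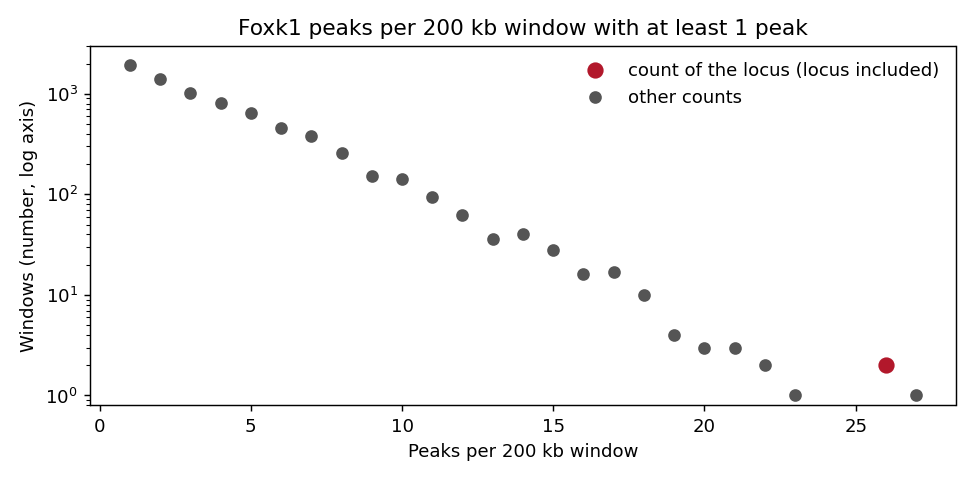
Number of 200 kb windows (log axis) by the number of Foxk1 peaks they hold, on the grid that makes the locus 1 window, among windows with at least 1 peak. The red point at 26 peaks is the locus with 1 other window, and 1 window lies beyond it at 27.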

How the data were processed

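The submitters' processing notes name Bowtie and the build mm9. The version of Bowtie, the peak caller with its settings and whether libraries were pooled are each not given in the sources used for this description. The deposited file is a narrowPeak list of Foxk1 with input as its control, per the file headers. It holds a score from the authors for each peak (its signal value) and a deposited q-value on a linear scale. All peaks were 460 bp wide. The third deposited measure, the summit offset, was added to the start. Coordinates are 1-based.

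The window and its members, the word list and the comparisons were chosen with earlier results of these data known. Every peak with its summit in the window is named or counted, and outside it the strongest peak of the surrounding 1 Mb and the fullest 200 kb windows. No test was run, since the list has 1 value per peak and chose the locus, and depth is unknown, so the counting error of reads has no interval. A 95% exact binomial (Clopper-Pearson) interval over the peaks of the 1 Mb, 1.91 to 5.84 for the density ratio, served only to judge how far alternatives moved it. It takes peaks as independent and ignores how the locus was chosen. The planned sequences at summits and autophagy promoters were not analysed here, because they need mm9 sequence and annotation. Names, order and sequences of genes came from RefSeq tables of GRCm38.p6, matched by symbol or synonym (Mir21 as Mir21a). The code for the density ratio was checked on simulated lists with peak numbers fixed in advance. Merging and windows were checked on a short made-up list. Computation used Python 3.11.15, numpy 2.4.6, pandas 2.3.3, scipy 1.17.1 and matplotlib 3.10.9.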

Additional observations from a re-analysis of the deposited data

How the results depend on the processing

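Of the 26 peaks, 15 were left when the median signal value of the list was the minimum, and 15 at a q-value of at most 0.001. Widening or narrowing the window by 50 kb on each side gave 33 and 18, merging summits closer than 2000 bp gave 19 regions, and counting peaks that overlap the window gave 26. The density ratio of 3.35 lay between 3.04 and 4.15 under the limits on signal and q-value, the merge and the other windows, and was 7.60 against the rest of chromosome 11, a sparser reference. The median signal value of 21.6 became 18.3 in the wider window, 23.2 in the narrower one, 29.4 at a q-value of at most 0.001 and 22.5 after merging. In the rest of the 1 Mb the last 2 settings gave 24.1 and 18.3. The median distance of 3.15 kb became 5.57 kb both with that minimum on the signal value and after merging, against 18.1 kb in the rest of the 1 Mb after merging. The run of 16 summits became 8 with gaps under 5 kb and 23 with gaps under 20 kb, both limits chosen after seeing the data, as was the grid that fits the locus. No paired analysis was possible because replicates have no values of their own in the list, and for that reason none could be left out either. With the depth unknown, a stretch without peaks had none detected at this threshold.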
